A study of Mus musculus with 12 samples.

Results

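Oocytes collected from mice on postnatal day (PND) 40 were compared with oocytes from the lighter animals at PND 16, called PND 16 small, over all genes. The comparison took every pool that the sample titles place in these 2 cohorts, 3 and 3, which are 6 of the 12 pools in the series. Each pool held 18 to 45 oocytes of CD-1 mice, an outbred stock, and the labels give no transgene and no gonadotropin treatment. The study broadly describes PND 40 oocytes as competent, which means able to complete meiotic maturation, and PND 16 small oocytes as lacking competence. Its split of PND 16 competence by body weight rested on 2 mice in each group, and those data were not shown. Competence is therefore a description of the cohorts here, not a measurement on these pools. The other cohorts were PND 13, also described as non-competent, and PND 16 large, the heavier animals of that age, described as competent. In all cohorts the oocytes were released from antral follicles of unstimulated ovaries, stripped of cumulus cells by pipetting and held at the germinal vesicle stage by milrinone, an inhibitor of the phosphodiesterase that breaks down cyclic AMP in oocytes. Age, body weight and the follicles present on that day all differ between the 2 cohorts, so they cannot be told apart here, and which animals contributed to which pool is not recorded in the labels. The p-values below therefore measure the spread between pools, which was estimated over all 12 pools of the series.

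A growing oocyte fills itself with mRNA, ribosomes and organelles that the egg and the early embryo will use. Near the end of growth in the antral follicle, transcription is shut down, the chromatin condenses around the nucleolus, and the oocyte gains the ability to resume meiosis when the block by cyclic AMP is lifted. From then on the abundance of an mRNA depends on its storage and its decay. RNA was sequenced after depletion of ribosomal RNA, so transcripts were not selected by their poly(A) tails. All levels here are CPM, the counts of a gene scaled to the counts of its pool. RNA per oocyte was not measured, and in a pool fewer cells of one type cannot be told apart from less RNA per cell.

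The PND 16 small pools held 17671193 to 21362541 counts and the PND 40 pools 23422996 to 27418358. All 16 oocyte markers on the list were detected in both cohorts, with a summed level of 18179 to 20357 CPM in PND 16 small and 16557 to 17338 CPM at PND 40. PND 16 small replicate 2 stood apart for granulosa cells, the somatic cells that surround the oocyte. Its Inha, the inhibin alpha subunit, was at 130.5 CPM against 4.42 and 16.5 CPM in the other PND 16 small pools and 11.4, 13.2 and 11.7 CPM at PND 40. Inhbb, the inhibin beta B subunit, was at 154.9 CPM in that pool against 2.58 and 7.12 CPM, and Amh, anti-Müllerian hormone, was at 32.0 CPM against 0.389 and 9.02 CPM. Over the 18 granulosa and cumulus cell markers, which were all detected, the summed level was 759.9 to 1205 CPM in PND 16 small and 764.3 to 810.5 CPM at PND 40. In each pool Bmpr1b (313, 394 and 429 CPM against 358, 364 and 350 CPM) and Serpine2 (258, 237 and 254 CPM against 291, 224 and 294 CPM) led this sum. Neither was highest in PND 16 small replicate 2, and the sum varied less than Inha, Inhbb and Amh. Of the 18 markers 16 had a negative fold change, with a median log2 fold change of -1.07 at PND 40. For some of them the sign did not hold across the PND 16 small pools. Inhbb, Inhba, Amhr2, Npr2 and Hsd17b1 (0.534, 15.1 and 0.237 CPM against 2.57, 3.46 and 1.51 CPM) were lower in replicates 1 and 3 than in every PND 40 pool. In 4 of the 18 markers the cohorts did not overlap, beside 43.9% of all genes tested. The members called were Kitl (30.3, 21.3 and 53.6 CPM against 12.1, 15 and 10.8 CPM), the KIT ligand, and Fshr, the receptor of follicle-stimulating hormone. Among PND 16 small pools Kitl was lowest in replicate 2, and Fshr lost its call in every fit without 1 pool. Nr5a2 passed by adjusted p (0.0274) but not by fold (log2 fold change -0.47). Theca and stroma markers summed to 8.84 to 38.6 CPM in PND 16 small and 12.8 to 16.8 CPM at PND 40, with Insl3 and Lum at 0 in the former and Insl3 and Tagln in the latter. On this list Cyp11a1, which starts steroid synthesis, was called higher (1.51, 2.37 and 1.66 CPM against 5.79, 5.06 and 5.48 CPM, adjusted p = 0.0016), and Acta2, smooth muscle actin, lower (0.777, 0.853 and 2.67 CPM against 0.214, 0.557 and 0.0735 CPM, adjusted p = 0.0324), a call lost without PND 40 replicate 1 or 3 or PND 16 small replicate 3. Red blood cell markers were at or near 0, with all 4 globin genes on the list at 0. Of the leukocyte markers 5 of 7, Ptprc among them, were below the filter on low counts, and H2-Aa was the one with most counts. Pecam1 led the 6 endothelial markers at 60.4, 57.6 and 61 CPM in PND 16 small and 58.5, 58.1 and 60.5 CPM at PND 40, while Cdh5 and Emcn were at or near 0 in both cohorts.

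Between PND 40 and PND 16 small, 2395 of 13943 genes tested (17.2%) differed by at least 1.5-fold at an adjusted p of at most 0.05. The level was higher at PND 40 for 960 genes (6.89% of all tested) and lower for 1435 (10.3%), so that 59.9% of the genes called were lower. All adjusted p-values below come from the same fit, edgeR's quasi-likelihood test adjusted as Benjamini and Hochberg describe. The median log2 fold change was 1.00 for the higher genes and -1.06 for the lower genes, against -0.012 over all genes tested. At least a 2-fold change was reached by 479 higher and 781 lower genes, and at least a 4-fold change by 164 and 144. Genes that were lower had a median level of 16.1 CPM in PND 16 small and 7.30 CPM at PND 40, and genes that were higher moved from 6.92 to 15 CPM. The 3 PND 40 pools did not overlap the 3 PND 16 small pools in 955 of the higher and 1378 of the lower genes, while the pools were without overlap for 43.9% of all genes tested. In the PND 40 cohort 19 of the lower genes were at the floor of 3 counts in each pool, as were 31 of the higher genes in PND 16 small.

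**Figure D1:**
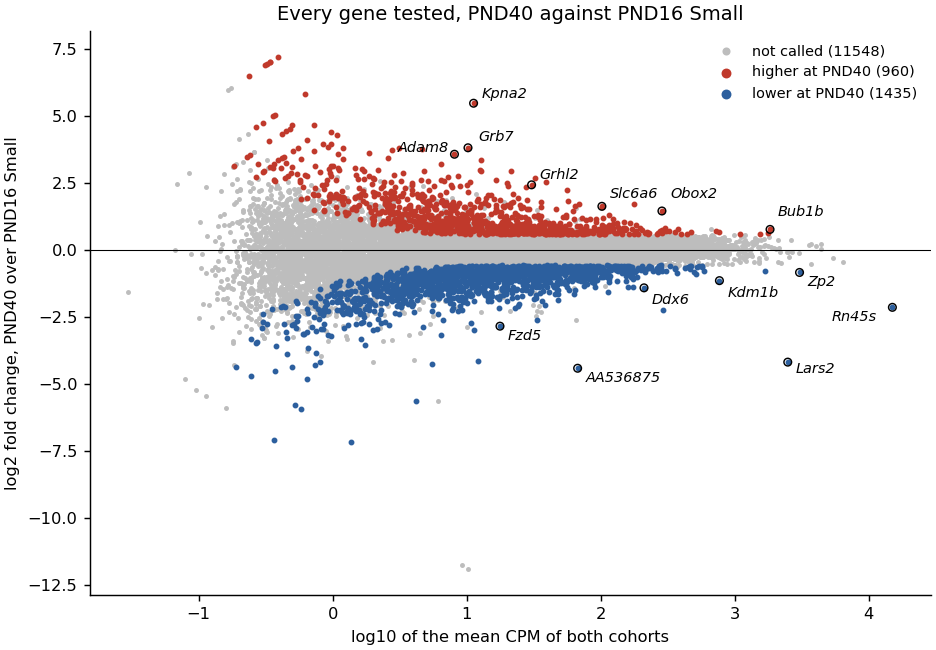
Log2 fold change of each of 13943 genes between PND 40 and PND 16 small (vertical axis) against the log10 of its mean CPM in both cohorts (horizontal axis). Each point is a gene, red for the 960 called higher and blue for the 1435 called lower at PND 40. Named genes are circled, and Bub1b, Zp2, Rn45s and Lars2 are called genes at the right end, where levels are highest.

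The pools of the younger cohort differed more among themselves. The median SD of log2 CPM between pools was 0.281 in PND 16 small and 0.145 at PND 40, and the SD was the larger in PND 16 small for 76.9% of genes. Pearson's correlation of log2 CPM across genes, which are not independent replicates, was 0.947 to 0.957 between PND 16 small pools and 0.979 to 0.986 between PND 40 pools. Without PND 16 small replicate 2, the pool of both cohorts with most Inha, Inhbb and Amh, 2481 genes were called, of which 2039 were among the 2395. Granulosa transcripts were also counted in the other pools of both cohorts. With the granulosa marker level as a covariate 2587 genes were called, of which 2325 were among the 2395.

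The 6 genes with the smallest p-values among those that rose at PND 40 were taken from genes whose cohorts did not overlap. Grhl2 (chr15:37232821-37363569 in GRCm38.p6), a transcription factor of epithelial genes, was at 11, 8.34 and 9.37 CPM in the PND 16 small pools and at 46.9, 53.7 and 53.2 CPM in the PND 40 pools, a log2 fold change of 2.42 ± 0.16 (SE) with an adjusted p of 1.31e-05. Grm2 (chr9:106644534-106656109), a metabotropic glutamate receptor, stood at 6.61, 6.92 and 5.99 CPM against 30.5, 32.7 and 38.9 CPM at PND 40 (adjusted p = 1.31e-05). Crabp2 (chr3:87948693-87953372), which carries retinoic acid inside the cell, went from 12.6, 7.54 and 5.69 CPM to 55.7, 62.2 and 49.2 CPM (log2 fold change 2.69 ± 0.23). The lowest PND 40 pool was several times above the highest PND 16 small pool in each of these genes. Ptpre (chr7:135537824-135686294), a receptor-type tyrosine phosphatase, was nearly identical in the PND 16 small pools at 12.1, 12.2 and 12 CPM and reached 41.6, 38.9 and 51.4 CPM at PND 40. Gtf2ird1 (chr5:134357661-134456867), a transcription factor of the GTF2I family, rose from 12.8 to 38 CPM on average, and Adam8 (chr7:139978932-139995207), a membrane-bound metalloprotease, rose from 1.25 to 14.9 CPM. The calls of all 6 held in every fit without 1 pool.

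**Figure D2:**
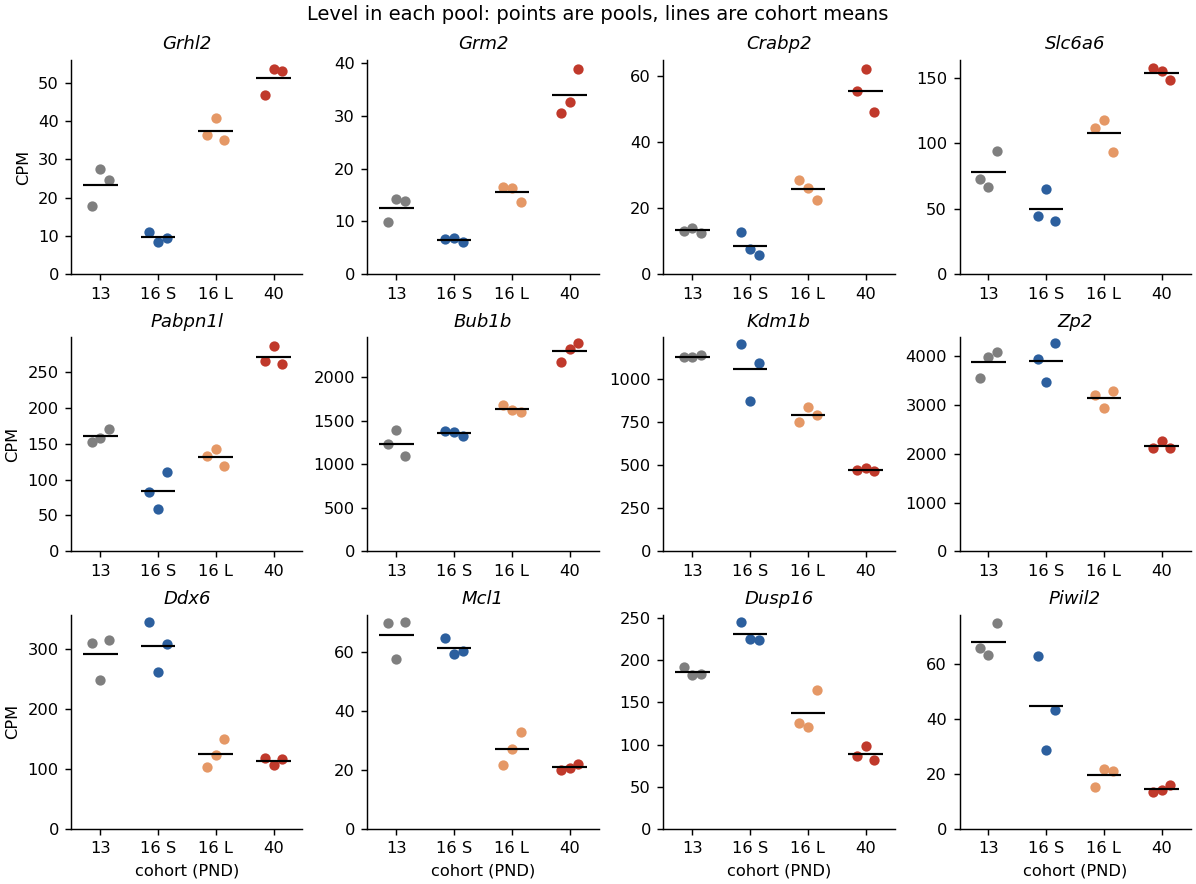
Level of 12 genes in CPM (vertical axes, from 0) in each pool, by cohort on the horizontal axis (13, 16 S for PND 16 small, 16 L for PND 16 large, 40). Points are pools and black lines are cohort means of 3 pools. The PND 40 points of Grhl2, Grm2, Crabp2, Slc6a6, Pabpn1l and Bub1b lie above all PND 16 small points, those of Kdm1b, Zp2, Ddx6, Mcl1, Dusp16 and Piwil2 below them.

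The 6 genes with the smallest p-values among those that fell were taken under the same condition. Raver2 (chr4:101069038-101152370), an RNA-binding protein, was at 79.1, 72 and 74.4 CPM in PND 16 small and 33.9, 36.7 and 32 CPM at PND 40 (log2 fold change -1.13 ± 0.09, adjusted p = 2.01e-05). Dusp16 (chr6:134715468-134807063), a phosphatase of stress-activated MAP kinases, was at 246, 225 and 224 CPM against 86.3, 97.8 and 81.3 CPM at PND 40. Kdm1b (chr13:47043373-47085279), the histone H3K4 demethylase needed to set maternal imprints in the oocyte, was at 1207, 872 and 1094 CPM and then at 471, 486 and 469.5 CPM (log2 fold change -1.15 ± 0.10). The spread of Kdm1b between pools was wide in PND 16 small and narrow at PND 40. Khdc1a (chr1:21349677-21352199), a KH-domain protein of the oocyte, fell from 139.8 to 68.5 CPM. Lcp1 (chr14:75131105-75230842), an actin-bundling plastin, fell from 112 to 45.7 CPM, and Fyttd1 (chr16:32877581-32908963), an adaptor for mRNA export, fell from 55.9 to 22.5 CPM. None of these calls was lost in a fit without 1 pool.

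Several of the transcripts with most counts in these oocytes also changed, by less than 2-fold in the case of Bub1b, Bcl2l10, Oas1d, Zp2 and Nlrp5. Bub1b, the BUBR1 kinase of the spindle assembly checkpoint, was at 1383, 1367 and 1331 CPM in PND 16 small and 2175, 2328 and 2393 CPM at PND 40 (log2 fold change 0.76 ± 0.08, adjusted p = 5.02e-05). Bcl2l10, a BCL2-family survival protein of the oocyte, was at 591, 534 and 508 CPM against 883, 865 and 935 CPM. Oas1d, an oocyte member of the oligoadenylate synthetase family, rose from 591 to 936 CPM. Rfpl4, a RING-finger protein of the oocyte, and AU022751, a gene listed as an expressed sequence, were close to the 1.5-fold limit, at log2 fold changes of 0.60 and 0.59. Rfpl4 lost its call in 3 and AU022751 in 2 of the 6 fits without 1 pool. In the other direction, Zp2, a glycoprotein of the zona pellucida that sperm bind, was at 3948, 3481 and 4283 CPM in PND 16 small and 2121, 2262 and 2124 CPM at PND 40 (log2 fold change -0.85 ± 0.09, adjusted p = 3.48e-05). Nlrp5, also called MATER and part of the subcortical maternal complex, was at 2526, 1707 and 2175 CPM against 1175, 1235 and 1308 CPM.

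Rn45s and Lars2 took part in the counts to a degree that varied between pools. Rn45s, the precursor of ribosomal RNA, was at 14721, 30173 and 28372 CPM in PND 16 small and 5834, 5195 and 5498 CPM at PND 40 (log2 fold change -2.15 ± 0.29, adjusted p = 0.000574). Lars2, the mitochondrial leucyl-tRNA synthetase, was at 1024, 5480.3 and 7607 CPM in PND 16 small, and at 347, 98.8 and 327 CPM at PND 40. The call of Lars2 was lost in 5 of the 6 fits without 1 pool. Libraries were depleted of ribosomal RNA by the authors, and whether depletion was equally complete in each pool was not tested. With both genes left out of the counts, 2409 genes were called, 2383 of them among the 2395.

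The largest fold changes were found mostly in genes of low level, and in a pair of genes that fell into separate levels across the series. Kpna2 (chr11:106988629-106999525), the nuclear import receptor importin alpha 2, was at 0.243, 0.0948 and 1.25 CPM in PND 16 small and 21.4, 23.8 and 20.6 CPM at PND 40 (log2 fold change 5.46 ± 1.38, adjusted p = 0.0176). AA536875 (chr14:123168503-123176176), listed as an expressed sequence, had the reverse pattern with 139, 125 and 120.5 CPM in PND 16 small and 3.77, 7.61 and 6.54 CPM at PND 40. No pool lay in between. The division did not follow the cohorts in the rest of the series, because PND 13 replicate 2 stood with the PND 16 small pools in both genes. Kpna2 was at 20.1, 0.156 and 20.5 CPM in the PND 13 pools and at 25.9, 28.1 and 25.6 CPM in PND 16 large, and AA536875 was at 5.44, 117 and 6.14 CPM and 7.0, 7.30 and 7.72 CPM. In a search made after these values were seen, no other called gene with a mean of at least 1 CPM set PND 13 replicate 2 and the PND 16 small pools apart from the other 8 pools by at least 4-fold (0.1 CPM added), and no gene did so with PND 13 replicate 1 or 3 in its place. Kpna2 lost its call in the fits without PND 16 small replicate 1 or 2, and AA536875 in 3 of the 6 fits without 1 pool.

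Other large changes separated the cohorts more evenly. Grb7, an adaptor that binds receptor tyrosine kinases, was at 1.21, 0.616 and 2.31 CPM in PND 16 small and 21.1, 19.8 and 16.2 CPM at PND 40 (log2 fold change 3.80 ± 0.63, adjusted p = 0.00118). Rapgef3, the cyclic AMP sensor EPAC1 that activates the small GTPase RAP, was at 0.437, 0.379 and 0.415 CPM against 5.02, 4.90 and 7.42 CPM. Zfp488, a zinc finger gene, rose from 0.156 to 2.23 CPM, and Ppm1e, a serine/threonine phosphatase, rose from 0.643 to 8.63 CPM. Abcb11, the bile salt export pump, varied widely at PND 40 with 6.05, 8.16 and 1.21 CPM, and lost its call without PND 16 small replicate 2. Downward, Slc16a6, a monocarboxylate transporter family member, was at 7.05, 16.9 and 7.30 CPM in PND 16 small and 0.815, 0.597 and 0.220 CPM at PND 40. Dusp5, a phosphatase of ERK kinases, fell from 3.21 to 0.265 CPM with tight PND 40 pools. Trim6, a ubiquitin ligase, was at 13.3, 32.1 and 23.6 CPM in PND 16 small, with 1 PND 40 pool at 3.16 CPM and the others at 0.300 and 0.279 CPM. Lipo2, a member of the lipase family, was at 5.25, 0.237 and 2.67 CPM in PND 16 small and at the floor of 3 counts per pool at PND 40, at least 22.8-fold lower, and its call was lost in 5 of the 6 fits without 1 pool. Khdc1a, Oas1d, Obox2, Oog2 and Lipo2 belong to families of similar genes, and counting could divide their reads between copies.

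Gene lists that cover the main tasks of an oocyte are described by counts, beside the 6.89% higher and 10.3% lower among all genes tested. A share called near 17.2% is not a result about a list. Counts by adjusted p alone, without the 1.5-fold limit, stand beside 30.2% of all 13943 genes tested, 2020 higher and 2187 lower. Of the 301 list members called, 166 kept the call in each of the 6 fits without 1 pool, and counts of 3 or fewer members changed by at most 3 genes in those fits. Genes of oocyte identity moved in both directions. Of 14 zona pellucida, fertilization and cortical granule genes, 1 rose and 1 fell. The zona genes Zp1 (1269.9 to 926 CPM, adjusted p = 0.000827) and Zp3 (1772 to 1249.7 CPM, adjusted p = 0.00055) also fell, without overlap between cohorts. Their log2 fold changes of -0.46 and -0.50 were under the 1.5-fold limit, and so Zp2 was the zona gene called. Oosp3, an oocyte-secreted protein, rose from 171 to 268 CPM, but lost this call without PND 40 replicate 2 or PND 16 small replicate 3. Of 23 growth factors and receptors by which oocyte and follicle cells signal, 1 rose and 2 fell. Gdf9 (3633, 3485 and 3183 CPM against 4004, 4017 and 3928 CPM, adjusted p = 0.0592) and Bmp15 (3373 to 3781 CPM, adjusted p = 0.118), the factors through which the oocyte directs its cumulus cells, did not pass the test. The members that fell were receptors, with Tgfbr1, a type I receptor of the TGF-beta family, going from 115 to 59.1 CPM, and Acvr2a, an activin receptor, from 46.5 to 30.1 CPM. Grem1, a secreted inhibitor of bone morphogenetic proteins, was called higher at 0.526 and 2.61 CPM, but not in 5 of the 6 fits without 1 pool. Acvr2a was not called without PND 16 small replicate 3, and 4 members of this list were called higher without PND 16 small replicate 2.

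Among 23 oocyte transcription factors, 3 rose and 4 fell (30.4% called). Hsf1, the heat shock factor needed for meiosis in the oocyte, was at 58.7, 53.8 and 52.7 CPM in PND 16 small and 97.7, 96.7 and 87.8 CPM at PND 40 (log2 fold change 0.77 ± 0.10). Sohlh2, a helix-loop-helix factor of early oocytes, rose from 3.56 to 9.18 CPM, and Obox2, a homeobox gene of the oocyte, rose from 154 to 418 CPM. Trp63, the p53 family member that removes oocytes with DNA damage, was at 81.2, 79 and 90.2 CPM against 44.6, 46.4 and 42.6 CPM at PND 40. Yy1, a zinc finger factor needed for oocyte growth, fell from 37.9 to 13.5 CPM. The others that fell were Taf4b and Tbpl2, both parts of the oocyte's basal transcription machinery. Nobox and Figla, which maintain the oocyte program, were not called, at 342 and 316 CPM for Nobox and 7.45 and 8.05 CPM for Figla. The number that fell was 2 without PND 40 replicate 1, PND 16 small replicate 1 or PND 16 small replicate 3.

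The machinery of meiosis was measured on 5 lists. Of 34 genes around CDK1, the kinase that drives entry into M phase, 1 rose and 2 fell. Mos, the kinase that holds the egg at metaphase II, was at 272, 228 and 228 CPM in PND 16 small and 418, 396 and 379 CPM at PND 40 (log2 fold change 0.71 ± 0.09, adjusted p = 0.000124). Wee1, which inhibits CDK1 by phosphorylation, was at 89.1, 67.9 and 85.2 CPM against 43.1, 40.3 and 47.3 CPM. Cdc14b, a phosphatase that opposes CDK1, fell from 68.3 to 21.9 CPM. The remaining 31 genes were not called, with a list median of 0.088 on the log2 scale. Without PND 16 small replicate 1 or 3, 3 and 2 of these genes rose. In the cyclic AMP pathway that keeps meiosis arrested, 1 of 22 rose and 3 fell (18.2% called). Prkacb, a catalytic subunit of protein kinase A, fell from 44.8 to 22.9 CPM, Adcy6, an adenylyl cyclase, fell from 60.02 to 33.1 CPM, and the phosphodiesterase Pde5a fell from 6.96 to 2.92 CPM. Pde4d, a phosphodiesterase annotated as specific for cyclic AMP, rose from 9.16 to 16.4 CPM.

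Bub1b was the called member among 34 genes of the anaphase-promoting complex and the spindle assembly checkpoint, whose median log2 fold change was 0.20. By adjusted p alone, without the 1.5-fold limit, 12 of them were higher and 2 lower, beside 30.2% of all genes in either direction. Of 32 spindle kinases and pole proteins, 1 rose and 3 fell. Aurka, the kinase of spindle poles, was at 169, 200.2 and 168 CPM in PND 16 small and 280.1, 274 and 277 CPM at PND 40, while its cofactor Bora fell from 68.3 to 43.3 CPM; both calls were lost without PND 16 small replicate 3. Ran, the GTPase that promotes spindle assembly around chromosomes, fell from 21.3 to 8.98 CPM. Of 36 cohesion and meiotic recombination genes, 3 rose and 9 fell (33.3% called, against 17.2% of all genes). Pds5a, a regulator of cohesin, was at 128, 90.1 and 112 CPM against 58.7, 62.5 and 56.2 CPM at PND 40 (adjusted p = 0.000141). The members that fell included the meiotic cohesin subunits Smc1b (53.6 to 28.7 CPM) and Rad21l (12.8 to 7.12 CPM). They also included the synaptonemal complex proteins Sycp1 (9.41 to 4.37 CPM), Sycp2 (154 to 102 CPM) and Sycp3 (44.4 to 20.4 CPM). Esco1, which acetylates cohesin, rose from 179 to 273 CPM, while Esco2, its paralog, fell from 555 to 368 CPM. The other members that rose were Mei4 (0.958 to 4.86 CPM, adjusted p = 0.00281) and Tex12, also of the synaptonemal complex (log2 fold change 0.87, adjusted p = 0.0198). Without PND 16 small replicate 3 the number that fell was 5. Smc1b, Rad21l, Pds5a and Mei4 were called in each of the 6 fits without 1 pool. The calls of Sycp1, Sycp2, Sycp3, Esco1, Esco2 and Tex12 were lost in 2 or 3 of these fits. Without PND 40 replicate 1, 1 member of the list rose.

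Genes whose products are stored for the embryo were measured on 4 lists. Of 20 genes of the subcortical maternal complex, a protein lattice under the egg surface, and of the oocyte NLRP family, Oog2 rose from 113 to 194 CPM and Nlrp5 fell. Ooep, another subunit of the complex, had a log2 fold change of 0.52 (adjusted p = 0.00032), short of the 1.5-fold limit. By adjusted p alone, 4 of these genes were higher and 8 lower, beside 30.2% of all genes in either direction. Among 35 maternal-effect and DNA methylation genes, 2 rose and 3 fell. Ehmt2, the H3K9 methyltransferase G9a, was at 30.7, 26 and 24 CPM in PND 16 small and 12.1, 10.8 and 10.8 CPM at PND 40 (log2 fold change -1.26 ± 0.16). Eed, a subunit of Polycomb complex 2, was at 135, 133 and 119.7 CPM against 199, 196 and 194 CPM, and its call was lost without PND 16 small replicate 3.

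Of 46 factors that store, translate or destroy mRNA, 6 fell and 1 rose (15.2% called), with a median log2 fold change of 0.001. Ddx6, an RNA helicase of stored and repressed mRNA, was at 346, 263 and 309 CPM in PND 16 small and 119, 106 and 117 CPM at PND 40 (log2 fold change -1.42 ± 0.14, adjusted p = 4.08e-05). Ythdf2, which reads m6A marks and promotes the decay of maternal mRNA, was at 221, 203 and 251 CPM against 115, 116 and 114 CPM. Pabpn1l, a poly(A)-binding protein of the oocyte that takes part in maternal mRNA decay, went the other way, from 83.3, 58.9 and 111 CPM to 265, 287 and 261 CPM (log2 fold change 1.69 ± 0.17). The remaining members that fell were Patl2, an oocyte translational repressor (134 to 74.7 CPM), Cpeb2, Zfp36l1 and Zfp36l2. Zfp36l2, which binds AU-rich mRNA, went from 54 to 33.2 CPM. The number lower was 3 without PND 40 replicate 1. Of 28 small RNA and piRNA genes, 6 fell and none rose (21.4% called), with 1 higher and 9 lower by adjusted p alone. Piwil2, a PIWI protein that binds piRNAs, was at 62.7, 28.6 and 43.1 CPM in PND 16 small and 13.4, 14.2 and 15.8 CPM at PND 40. Ddx4, the VASA helicase of germ cells, was at 224, 171 and 221 CPM against 106, 114 and 106 CPM. The others were Tdrd9, a germline helicase (170.4 to 57 CPM), Drosha, which cuts microRNA precursors (258 to 155 CPM), and the Argonautes Ago2 (103 to 50.2 CPM) and Ago4. In fits without 1 pool 5 or 6 members of this list fell.

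With the 1.5-fold limit, the PI3K, mTOR and Hippo lists, of signalling tied to oocyte growth, were called in shares near the 17.2% of all genes. Of all calls 59.9% were lower. By adjusted p alone, 15 of 50 PI3K genes were lower and 4 higher. For the 48 mTOR genes these counts were 14 and 6, and for the 42 Hippo genes 10 and 5. That criterion called 30.2% of the 13943 genes tested, 2187 lower and 2020 higher. In the PI3K list 7 of 50 genes fell and 1 rose (16% called), with a median log2 fold change of -0.26. Pikfyve, the kinase that makes the lipid of late endosomes, was at 288, 226 and 300.2 CPM in PND 16 small and 158, 174 and 166 CPM at PND 40. Inppl1, the lipid phosphatase SHIP2, fell from 54.7 to 36.4 CPM, at the edge of the 1.5-fold limit, and was not called in 3 of the 6 fits that left out 1 pool. Akt1, the kinase downstream of PI3K, was at 94.4, 85.6 and 71.7 CPM against 128, 125 and 131 CPM and was not called without PND 16 small replicate 3. In the mTOR list 5 of 48 fell and 2 rose (14.6% called), with a median of -0.029. Prkaa2, a catalytic subunit of the energy sensor AMPK, was at 105, 83.7 and 104 CPM in PND 16 small and 44.8, 53.1 and 45.4 CPM at PND 40. Cab39, which activates the kinase LKB1 upstream of AMPK, was at 155, 154 and 180.2 CPM against 101, 95.8 and 91.4 CPM. Rptor, the defining subunit of mTOR complex 1, fell from 55.5 to 32.9 CPM, and Ddit4, an inhibitor of that complex, rose from 73.5 to 135 CPM with no overlap between cohorts. Rptor lost its call in 1 fit without a pool.

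In the Hippo list 5 of 42 genes fell and 2 rose (16.7% called). Strn3, a subunit of the phosphatase complex that restrains Hippo kinases, was at 79, 54 and 71 CPM in PND 16 small and 31.1, 34.5 and 29.9 CPM at PND 40. Frmd6, an upstream membrane protein, was at 15.7, 11.7 and 7.06 CPM against 2.36, 1.95 and 1.36 CPM, a log2 fold change of -2.60 ± 0.36. Of the TEAD factors at the end of the pathway, Tead1 fell from 42.9 to 23.2 CPM and Tead3 rose from 1.63 to 6.86 CPM. Rassf1, an adaptor of the Hippo kinases, rose from 24.2 to 43.6 CPM. Tead1 was no longer called in 2 of the 6 fits that left out a pool. The number lower was 3 without PND 40 replicate 1 and the number higher was 4 without PND 16 small replicate 1. In the WNT list 7 of 36 fell and 3 rose (27.8% called). Gsk3b, the kinase that marks beta-catenin for destruction, was at 128, 117 and 143 CPM in PND 16 small and 71.5, 79 and 68.9 CPM at PND 40. Lgr4, a receptor for R-spondins, fell from 48 to 21.5 CPM, and the Frizzled receptors Fzd1 (2.15 to 0.285 CPM), Fzd5 (31.1 to 4.28 CPM) and Fzd8 (7.58 to 3.71 CPM) fell as well. Lef1, a nuclear partner of beta-catenin, rose from 19.6 to 34.4 CPM, and the ligand Wnt7a rose from 1.63 to 4.23 CPM. Fzd8 was no longer called in 4 of the 6 fits that left out a pool.

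Of 62 ephrin, semaphorin, netrin and slit guidance genes, 13 rose and 8 fell (33.9% called, against 17.2% of all genes). Epha10, an ephrin receptor, was at 55.4, 57 and 50.2 CPM in PND 16 small and 25.5, 21 and 19.1 CPM at PND 40 (log2 fold change -1.31 ± 0.13, adjusted p = 2.87e-05). Unc5a, a netrin receptor, was at 36.7, 42.9 and 36 CPM against 63.3, 64.3 and 64.7 CPM, and its ligand Ntn1 rose from 8.93 to 23.5 CPM. The semaphorins Sema4b and Sema4c moved apart, from 95.4 to 58.2 CPM and from 12.2 to 26.3 CPM. Robo1, a slit receptor, fell from 67.3 to 26.9 CPM, and its ligand Slit2 fell from 7.92 to 3.85 CPM. The count of higher members depended on single pools, at 7, 8 and 7 without PND 40 replicate 1, 2 and 3 and 8 without PND 16 small replicate 3. Of 86 cadherins, integrins, laminins and collagens, 9 rose and 7 fell. Itga9, an integrin, was at 104, 113 and 114 CPM in PND 16 small and 214, 225 and 227 CPM at PND 40, and Itga10 rose from 8.30 to 16.4 CPM. Lama2, a laminin chain, was at 338, 286 and 346 CPM against 181, 198 and 198 CPM. Cdh3, or P-cadherin, fell from 170.4 to 112 CPM, a call lost in 2 fits without 1 pool, while Cdh2, or N-cadherin, rose from 7.06 to 16.8 CPM. The count of higher members was 4 without PND 40 replicate 2 or 3 and 5 without PND 16 small replicate 2. None of the 11 connexins and related gap junction genes tested was called, and 1 was higher by adjusted p alone.

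Among 41 actin nucleators and cortical motors, 6 were lower and none higher (14.6% called). By adjusted p alone, which 30.2% of all genes passed, 7 were higher and 12 lower. Actb, beta-actin, was at 133, 162 and 175 CPM in PND 16 small and 76.1, 76.7 and 66.7 CPM at PND 40 (log2 fold change -1.10 ± 0.11, adjusted p = 4.27e-05). Myh9, a heavy chain of non-muscle myosin II, was at 403, 451 and 567 CPM against 256, 258 and 270.5 CPM. Its paralog Myh10 fell from 130.4 to 50.2 CPM, and Cttn, or cortactin, fell from 24.7 to 13.4 CPM. The formin Diaph2 and gamma-actin, Actg1, completed the 6, and Actg1 was no longer called in 5 of the 6 fits that left out a pool. In fits without 1 pool 5 or 6 genes of the list fell. Actg1 was at 2.62, 2.51 and 1.90 CPM in PND 16 small and 0.987, 1.19 and 1.14 CPM at PND 40. Actb, Myh9 and Actg1 are used by most cell types, granulosa cells included, and the part of the granulosa transcripts in PND 16 small replicate 2 in these changes was not tested. Among 36 kinesins 2 rose and 4 fell, with Kifc3 at 149.6, 96.7 and 83.3 CPM in PND 16 small and 212, 179 and 188 CPM at PND 40. Kif26a rose from 17.6 to 34 CPM, and Kif26b and Kif13a fell from 22.2 to 8.55 CPM and from 40.1 to 19.2 CPM. Without PND 40 replicate 1 or PND 16 small replicate 2, 4 kinesins rose. Of 31 calcium store and influx genes 3 fell, of which Ppp3cb, a catalytic subunit of calcineurin, went from 48.1, 40.5 and 41.3 CPM to 25.8, 29.8 and 25.1 CPM. The other calls, Ryr1 and Stim1, were each lost in at least 3 of the 6 fits without 1 pool.

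In the next 3 lists, of metabolism and mitochondria, 10%, 5.56% and 14.9% of the members were called, against 17.2% of all genes. Of 50 genes of glycolysis, pyruvate handling and the TCA cycle, 5 rose and none fell, and by adjusted p alone 9 were higher and 6 lower. Pfkp and Pfkl, both phosphofructokinases, rose from 20.6 to 32.1 CPM and from 10.01 to 18.2 CPM, Tpi1 rose from 21.7 to 33.1 CPM, and Pdk2 was at 0.111 and 1.84 CPM. The median log2 fold change of the list was -0.073, and the number higher was 3 without PND 40 replicate 1 or 3 and 1 without PND 16 small replicate 3. Among 72 nuclear-encoded subunits of oxidative phosphorylation 2 rose and 2 fell, with Ndufa8 of complex I at 15.4, 16.3 and 14.4 CPM in PND 16 small and 23.4, 24.9 and 24.1 CPM at PND 40. Uqcrc1 of complex III moved the other way, from 29.5, 19.2 and 18.8 CPM to 8.02, 6.57 and 8.27 CPM. Mitochondrial ribosomal proteins included 8 of 74 higher and 3 lower. Mrps31 was at 19.7, 14.8 and 15.2 CPM against 36, 34.1 and 26.2 CPM at PND 40, and Mrps26 fell from 10.5 to 5.03 CPM. Without PND 16 small replicate 2 or 3, 5 of these genes rose. Genes encoded by the mitochondrial genome were not analysed here.

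Cytosolic ribosomal proteins had few calls, 3 of 62 higher and 1 lower, and many of their genes have near-identical pseudogenes that can share reads. Rpl17 was at 3.94, 1.66 and 2.02 CPM in PND 16 small and 7.98, 5.77 and 7.02 CPM at PND 40. Among 23 amino acid transporters 2 rose and 1 fell. Slc6a6, the taurine transporter, was at 44.3, 64.7 and 40.9 CPM in PND 16 small and 158, 155 and 148 CPM at PND 40 (log2 fold change 1.62 ± 0.17, adjusted p = 6.61e-05). Slc38a10 fell from 54.7 to 30.2 CPM. Of 56 lysosome, V-ATPase and autophagy genes, Ctsd, or cathepsin D, fell from 99.7 to 66.2 CPM and Atp6v1f was at 7.06 and 11.2 CPM; both calls failed in at least 1 fit without a pool. In the cholesterol list 1 of 28 genes, Acat2, was called higher, and not in 5 of the 6 such fits. Among 29 antioxidant enzymes Txn2, the mitochondrial thioredoxin, rose from 52.6 to 79.98 CPM, while Sod2, the mitochondrial superoxide dismutase, fell from 29 to 18.5 CPM. Txn2 lost its call in 2 of the 6 fits and Sod2 without PND 40 replicate 3.

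The largest list, genes named Zfp, most of which encode zinc finger proteins that bind DNA, was lower at PND 40 in 72 of 346 genes tested and higher in 9 (23.4% called), with a median log2 fold change of -0.23 against -0.012 over all genes. Zfp217, a transcriptional regulator, was at 246, 167 and 199.8 CPM in PND 16 small and 104, 102 and 106 CPM at PND 40 (log2 fold change -0.97 ± 0.11, adjusted p = 6.09e-05). Zfp523 was at 18.2, 21.5 and 25.7 CPM against 7.55, 8.32 and 9.63 CPM. Zfp951 was the clearest of the 9 that rose, from 52.9, 40.4 and 61.8 CPM to 126, 121 and 99.4 CPM. Between 51 and 80 of the list were lower in fits without 1 pool, and 22 were higher without PND 16 small replicate 1. Zfp genes share similar exons, and reads that match more than one of them may be counted differently by another counting method.

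Of 24 importins and nuclear export factors, 5 fell and 1 rose (25% called). Tnpo3, which imports splicing factors, was at 28, 25.7 and 32 CPM in PND 16 small and 9.82, 12.2 and 12.1 CPM at PND 40 (log2 fold change -1.33 ± 0.13). Xpo1, the main protein export receptor, was at 312, 357 and 374 CPM against 218, 215 and 210.4 CPM. The importins Kpna1 (8.20 to 2.84 CPM) and Kpna4 (20.9 to 6.47 CPM) and the tRNA exporter Xpot (15.3 to 3.22 CPM) fell in the same comparison in which Kpna2 was called higher. In the TRIM family of ubiquitin ligases 5 of 51 rose and 6 fell (21.6% called). Trim33 was at 187, 176 and 212 CPM in PND 16 small and 117, 113 and 113 CPM at PND 40, and Trim71 fell from 94.6 to 54.7 CPM. Trim35 rose from 13 to 39.5 CPM. The number of TRIM genes higher was 2 or 3 without PND 40 replicate 1, 2 or 3 or PND 16 small replicate 3. Of 22 zinc transporters and metallothioneins 4 fell and none rose (18.2% called, near the 17.2% of all genes). By adjusted p alone 2 were higher and 5 lower, beside 30.2% of all genes in either direction. Slc30a9 was at 22.8, 35.8 and 30.8 CPM against 12.2, 16 and 14.7 CPM at PND 40, and Slc39a1, a zinc importer, fell from 8.28 to 2.66 CPM.

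The next 4 lists, of general cell machinery, were called at 8.33%, 11.5%, 9.3% and 2.86%, against 17.2% of all genes. Core spliceosome genes (72 tested) had 2 higher and 4 lower, led by Snrpb, a core snRNP protein, at 17.4, 17.6 and 19.5 CPM in PND 16 small and 5.62, 6.89 and 7.42 CPM at PND 40. Translation initiation factors (52 tested) had 1 higher and 5 lower. Eif4g1, the scaffold of the cap-binding complex, was at 393, 377 and 412 CPM against 256, 257 and 272 CPM and was not called in 3 of the 6 fits that left out 1 pool, while Eif4a2, its helicase partner, rose from 55.6 to 94.5 CPM. The number of lower initiation factors was 2 or 3 without PND 40 replicate 1, 2 or 3 or PND 16 small replicate 1. Replication-dependent histone genes (43 tested) had 4 lower, with Hist1h3e at 16.4, 20.4 and 17.9 CPM in PND 16 small and 8.92, 9.44 and 7.97 CPM at PND 40, and 1 or 2 lower without any one of PND 40 replicate 1, 2 or 3 or PND 16 small replicate 2 or 3. Proteasome subunits (35 tested) had 1 lower, Psmd13 (11.2 to 5.37 CPM), with a median log2 fold change of 0.19 over the list. By adjusted p alone 11 of them were higher and 1 lower, beside 30.2% of all genes in either direction.

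DNA repair and checkpoint genes (49 tested) had 2 higher and 5 lower. Prkdc, the DNA-dependent protein kinase, was at 90.4, 71.3 and 89.1 CPM in PND 16 small and 32.3, 36.8 and 43.3 CPM at PND 40 (log2 fold change -1.16 ± 0.12, adjusted p = 4.28e-05). Trp53bp1, which channels double-strand breaks to end joining, rose from 188, 123.4 and 112 CPM to 253, 240.1 and 249 CPM. Parp1, a sensor of strand breaks, fell from 112 to 70.5 CPM. Without PND 16 small replicate 3 the number lower was 3. In the BCL2 family (19 tested) the members called were Bcl2l10, which rose, and Mcl1, which fell. Mcl1, a survival factor of the oocyte, was at 64.9, 59.4 and 60.4 CPM in PND 16 small and 19.9, 20.6 and 22.1 CPM at PND 40, a log2 fold change of -1.56 ± 0.14 (adjusted p = 2.38e-05). Both genes were without overlap between cohorts.

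**Figure D3:**
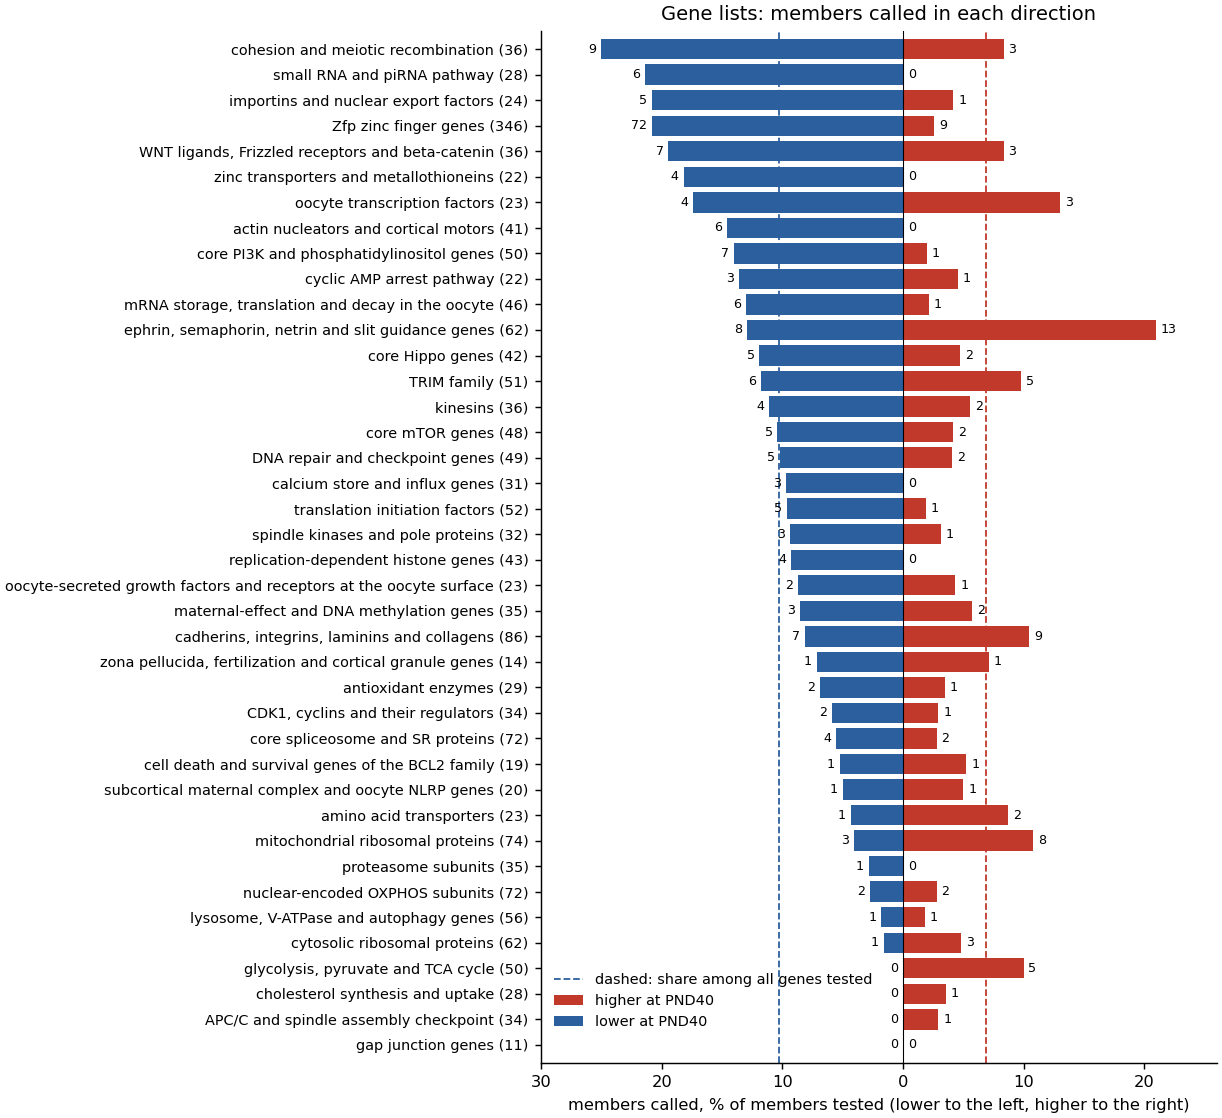
Share of the tested members of each gene list that were called lower (blue, to the left) or higher (red, to the right) at PND 40 (horizontal axis, percent of members tested, starting at 0 in the middle). The number tested is in brackets, the number called is at each bar, and dashed lines mark the shares among all genes tested, 10.3% lower and 6.89% higher. The blue bar of the 346 Zfp genes (72 lower) and both bars of the 62 guidance genes (13 higher, 8 lower) lie past the dashed lines.

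The other 6 pools, which share the estimate of spread but not the contrast that chose the genes, were placed on the same scale, with 0 at the PND 16 small mean and 1 at the PND 40 mean of each called gene in log2 CPM. For the 960 higher genes the median position of the PND 16 large pools was 0.505, 0.509 and 0.431, and that of the PND 13 pools was 0.266, 0.407 and 0.237. For the 1435 lower genes the PND 16 large pools were further along, at 0.720, 0.615 and 0.542, and the PND 13 pools were near 0, at -0.035, 0.048 and -0.114. PND 16 large oocytes thus lay between the 2 cohorts for both sets. PND 13 oocytes lay close to PND 16 small for the lower set and above PND 16 small for the higher set. The positions are a description, since an error in the PND 16 small mean shifts all other pools the same way. The genes were also chosen for a wide gap between the means of the 2 cohorts, which favours positions between them for any other cohort.

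**Figure D4:**
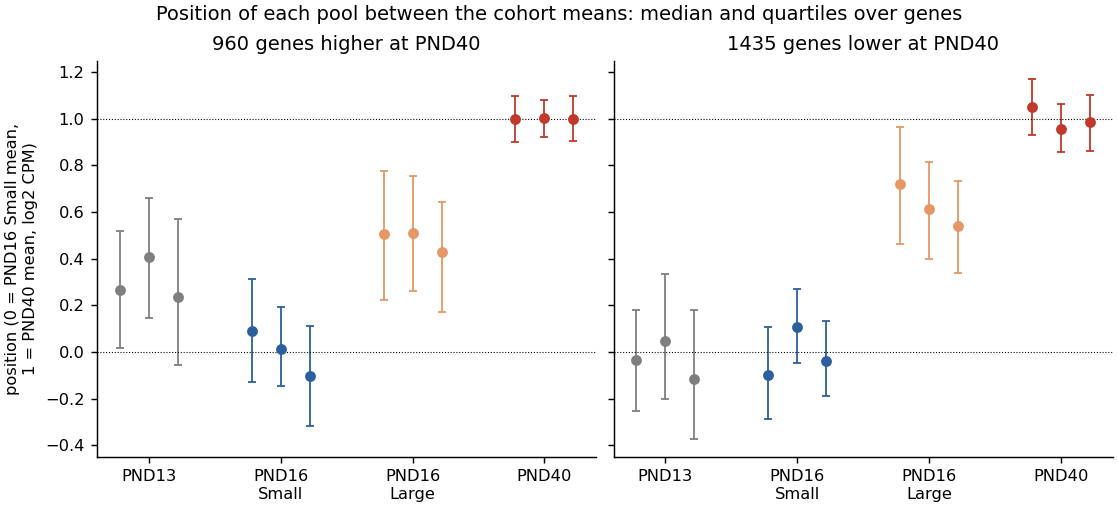
Position of each pool between the PND 16 small mean (0) and the PND 40 mean (1) in log2 CPM (vertical axis) by cohort (horizontal axis), for the genes higher (left) and lower (right) at PND 40. Points are medians over genes and bars run from the lower to the upper quartile of genes. The PND 16 large pools have medians of 0.431 to 0.509 on the left and 0.542 to 0.720 on the right.

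A second step between cohorts described as non-competent and competent, PND 16 large vs. PND 13, shares no pool with the first and was compared with it. In that step 1858 of 13943 genes were called (13.3%), 491 higher (3.52%) and 1367 lower (9.8%). Of the 1435 genes lower at PND 40, 1282 (89.3%) also had a lower mean in PND 16 large than in PND 13, where 52.9% of all genes did, and 666 were called lower there. Of the 960 genes higher at PND 40, 595 (62.0%) had a higher mean in PND 16 large, where 47.1% of all genes did, and 113 were called higher. The median log2 fold change in PND 16 large vs. PND 13 was -0.69 for the first set and 0.14 for the second, against -0.036 over all genes. Ddx6 (311, 249 and 316 CPM in PND 13, 103, 124 and 149 CPM in PND 16 large), Mcl1 (70.02, 57.6 and 70.2 and 21.6, 27 and 33 CPM) and Piwil2 (65.8, 63.1 and 74.8 and 15.2, 21.8 and 21.2 CPM) are genes that fell in both steps. Ehmt2, Tnpo3, Strn3, Tgfbr1, Wee1 and Adcy6 also fell in both, with log2 fold changes of -1.56, -1.34, -1.17, -0.95, -0.87 and -0.94 in PND 16 large vs. PND 13.

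The difference between the steps was tested directly, and 906 genes (6.5%) had fold changes that differed by at least 1.5-fold at an adjusted p of at most 0.05, 509 with a difference above 0 and 397 below 0. Of these, 269 rose and 162 fell at PND 40 vs. PND 16 small without a call in the other step, and 50 were called in opposite directions. Fasn, fatty acid synthase, was at 30.4, 39.4 and 33 CPM in PND 16 small and 63.2, 60.8 and 56 CPM at PND 40, but at 54.3, 57 and 59.3 CPM in PND 13 and 23, 23.3 and 21.5 CPM in PND 16 large, so it was lowest in both PND 16 cohorts (difference of log2 fold changes 2.14, adjusted p = 2.94e-05). Cbfa2t3, a transcriptional corepressor, had the same form with cohort means of 5.79, 1.93, 2.08 and 12.6 CPM at PND 13, in the small and large cohorts of PND 16 and at PND 40. Cdo1, which oxidizes cysteine on the way to taurine, was at 194, 154, 115 and 253 CPM in the same order. Adam8 was at 3.14, 1.25, 1.72 and 14.9 CPM. The reverse form, highest in the PND 16 cohorts, was seen for Pak7, a p21-activated kinase, at 48, 91.9, 106 and 49 CPM, and for Tcf4, a helix-loop-helix factor, at 36.1, 50.5, 47.8 and 19.7 CPM. The number of genes differing between the steps was 1728 without PND 16 small replicate 1, 526, 544 and 529 without PND 40 replicate 1, 2 and 3, and 1380 with DESeq2.

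**Figure D5:**
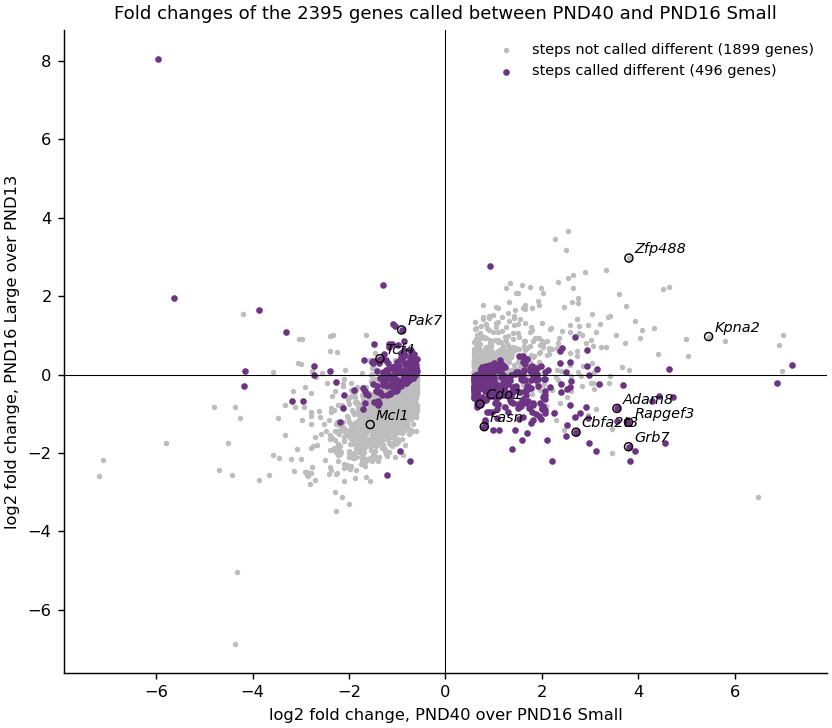
Log2 fold change of PND 16 large over PND 13 (vertical axis) against that of PND 40 over PND 16 small (horizontal axis) for the 2395 genes called in the latter. Each point is a gene, purple for the 496 whose fold changes were called different between the steps. Most points on the left lie below 0 (1282 of 1435), while those on the right are spread around 0, with Fasn, Cbfa2t3, Adam8, Rapgef3 and Grb7 below it.

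The called genes also differed from the rest in the length and composition of their transcripts, which were not inputs to the test. The longest annotated transcript (GENCODE M21) had a median length of 4058 bases for genes lower at PND 40 and 2971 bases for genes higher, against 3390 bases for all genes tested. The median G+C content was 47.8% for the lower and 51.3% for the higher genes, against 49.3% for all. Values were found for 99.3%, 98.4% and 98.8% of the genes in these sets. Length and G+C content can also affect the recovery of reads in a library, and their part in the fold changes and in the calls was not tested.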

How the data were processed

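RNA-Seq was done by the authors on pools of denuded germinal vesicle oocytes, with directional libraries made after ribosomal RNA depletion. The submitters' processing notes name FastQC, STAR, HTSeq, DESeq2, DESeq, HOMER and the build mm10, with no role or version. The authors deposited raw counts per gene, which were used for all main results. The authors also deposited log2 values, which the 2 tables show to be the log2 of counts divided by a size factor per pool, plus 1, and these served in an alternative. Cohorts were taken from the sample titles, with 3 pools in each.

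Counts of 24562 genes were filtered with filterByExpr (minimum count 10), scaled by TMM factors and fitted over all 12 pools and 4 cohorts with the robust quasi-likelihood test of edgeR 4.0.16 in R 4.3.3. Adjustment for the 13943 genes that passed the filter followed Benjamini and Hochberg. A call needed an adjusted p of at most 0.05 and a change of at least 1.5-fold. CPM values use TMM-scaled library sizes. The SE of a log2 fold change is its size divided by the root of the F statistic, an approximation. The steps of the analysis were tested on simulated data.

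The comparison and the gene lists were chosen with earlier results of these data known. Genes were named by rule from those called whose cohorts did not overlap. The rule took the 6 with the largest fold change (mean of at least 1 CPM) and the 6 with the smallest p in each direction, and the 5 with most counts. It also took up to 2 members of each list per direction, the 6 genes with the smallest p in the difference between steps, and the leading member of each cell type marker list. Gm and Rik models were left out of the first parts. Other list members, and genes named as not called, were named after their values were seen. For 5 symbols the table had more than 1 row, among them Zar1 with identical counts, which was counted once. Gene positions are from RefSeq (GRCm38.p6), where 13661 of the genes tested were matched, and transcript features from GENCODE M21. DESeq2 1.42.0, limma 3.58.1, other scalings and filters, a replicate block, a granulosa covariate and each fit without 1 pool were run as alternatives. The result for 1 gene named by the rule is not reported here.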

Additional observations from a re-analysis of the deposited data

Results flagged for a closer look

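The log2 fold change of PND 40 vs. PND 16 small differed from that of PND 16 large vs. PND 13 for 906 genes, by edgeR's test of the difference itself. The 6 genes with the smallest p in that test were singled out. The fold change was the larger at PND 40 vs. PND 16 small for Fasn (difference of log2 fold changes 2.14), Cbfa2t3 (4.18), Cdo1 (1.47) and Adam8 (4.42). It was the smaller for Pak7 (-2.04) and Tcf4 (-1.76).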

How the results depend on the processing

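The count of 2395 genes called kept within 1.5 times its value under each alternative tool, scaling, filter and covariate run, from 2010 with the 6 pools alone to 2655 with DESeq2. With no 1.5-fold limit 4207 genes were called, 2020 higher and 2187 lower at PND 40. In fits without 1 pool the count was 1850 to 2558, with 734 to 1193 higher and 1105 to 1497 lower. The number of genes that differed between the steps was 1380 with DESeq2 and 526 to 1728 in fits without 1 pool. The causes of these shifts were not tested. The cohorts share replicate numbers, and a fit with the replicate number as a block called 2236 genes, 908 higher and 1328 lower, and 696 genes in the difference between the steps. Deviations of same-numbered pools from their cohort means had correlations of -0.0189, 0.0753 and 0.0255, so the numbers were not read as a pairing. Leaving out Rn45s and Lars2, an alternative chosen after seeing the data, gave 2409 genes and 902 genes. Of 149 named genes called, 107 kept the call in every alternative and every fit without 1 pool. Depth limits genes at the floor of 3 counts per pool, for which a bound was given.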
